A study of Mus musculus with 24 samples.

Results

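The 6 kidney libraries titled ENPP1 knockout adenine were compared over all genes with the 4 titled CHOW diet control, which together are 10 of the 24 libraries of the series. The comparison asks which changes of the adenine-injured kidney remained in mice labelled as lacking ENPP1. The labelled knockouts came from ENPP1 fl/fl mice carrying CAG-ERCre, a Cre recombinase fused to an oestrogen receptor domain and driven by the ubiquitous CAG promoter, in which tamoxifen was to start the deletion, and they received an adenine diet for 14 days. The chow libraries (n = 4) came from mice on a control diet, whose genotype is not stated. The 6 wild-type libraries, from mice without CAG-ERCre on adenine for 14 days, are set beside them. The labels do not say whether chow or wild-type mice were given tamoxifen, and give neither age, sex nor strain. Diet, Cre genotype and tamoxifen therefore may all differ between the labelled knockouts and chow, and cannot be told apart in that comparison. The difference between the labelled knockouts and wild type, both on adenine, is a test within the diet. In it the Cre transgene, tamoxifen and the deletion may differ together, and cannot be told apart. Nothing in the labels says that the libraries came from separate animals, so p-values measure the spread between these samples.

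Adenine is oxidised to a purine that is poorly soluble, and its crystals block and injure renal tubules. The proximal tubule, which takes back most of the filtered solutes and burns fatty acids for that work, loses its transporters and enzymes when injured, while surviving cells switch on injury genes such as Havcr1 and divide. Leukocytes enter, and fibroblasts lay down collagen. ENPP1 is an ectoenzyme that cleaves ATP outside cells to AMP and pyrophosphate, an inhibitor of mineral deposition, and also degrades the extracellular messenger cGAMP.

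Reads assigned to genes numbered 21057859 to 28213689 per library over the 16 libraries. Levels are given as CPM, counts scaled to the library total after TMM correction, which compare a gene between libraries and not genes with each other. The TMM factors differed by group: 0.717 to 0.741 in chow, 1.04 to 1.14 in the labelled knockouts and 1.06 to 1.24 in wild type. Comparisons with chow, also of genes near its level, rest on this correction. Changes are fitted log2 differences with their standard error (SE) from edgeR's quasi-likelihood test over 16965 genes, called at a Benjamini-Hochberg adjusted p under 0.05. The adenine and chow libraries stood far apart: the first principal component held 75.7% of the variance. Mitochondrially encoded genes took 19.4% to 22.2% of the reads in the labelled knockouts and 20.7% to 26.7% in chow. Reads of the Y-linked genes Ddx3y (4 to 14) and Eif2s3y (0 to 4) were few in every library of the 3 groups.

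Enpp1 RNA was lower in the labelled knockouts than in chow, but not lower than in wild type on the same diet. The labelled knockouts held 21.5 (lowest), 22.3 (median) and 24.7 (highest) CPM, and the chow libraries 55.8, 55.4, 55.6 and 49.9 CPM. The groups did not overlap, and the log2 change was -1.25 ± 0.055 (SE, edgeR adjusted p = 3.48e-13). Wild type on adenine stood at 22.0 ± 1.52 CPM (mean ± SD, n = 6), and the labelled knockouts differed from it by a log2 difference of 0.05 (95% interval -0.06 to 0.16, edgeR adjusted p = 0.465). The coding transcript Enpp1-202, which carried most of these reads, ranged from 18.6 to 21.4 CPM in the labelled knockouts, 17.1 to 19.7 CPM in wild type and 47.5 to 53.5 CPM in chow. Which exons were to be removed is not stated in the labels, and reads outside the deleted part would still be counted, so these values do not check the deletion.

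A transcript signal that did follow the labels came from Esr1, which encodes oestrogen receptor alpha and was picked after its values were seen. The labelled knockouts held 22.0 (lowest), 28.5 (median) and 31.5 (highest) CPM and the chow libraries 11.6, 8.70, 7.57 and 8.62 CPM, without overlap. The log2 change was 1.60 ± 0.13 (SE, edgeR adjusted p = 1.59e-09). Wild type stood at 3.95 ± 0.799 CPM (mean ± SD, n = 6), a log2 difference of 2.81 from the labelled knockouts (edgeR adjusted p = 1.06e-10). Most of the excess was assigned to 2 transcripts. Esr1-203 had 220 to 316 reads in each labelled knockout library, 0 to 1 in wild type and 0 in all 4 chow libraries, where a count of 0 allows up to 3 reads. Esr1-208 had 238 to 368 reads in the labelled knockouts, 4 to 10 in wild type and 2 to 10 in chow. In the GENCODE annotation Esr1-208 has 5 exons, of which 4 start where exons 7 to 10 of the 10-exon transcript Esr1-204 start, at the 3′ end of the gene, which codes for the ligand-binding domain. Esr1-203 has 9 exons, of which 8 start where exons 3 to 10 of Esr1-204 start, so it reaches well beyond that part. Inducible Cre proteins of the ER type carry that domain of an oestrogen receptor. Esr1-204 itself had 104 to 143 reads in the labelled knockouts and 132 to 233 in chow. Scaled to the libraries these were 3.8 to 5.6 CPM and 6.5 to 11.2 CPM, without overlap, and wild type held 2.7 to 4.5 CPM. The source of the Esr1-203 and Esr1-208 reads was not tested.

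**Figure D1:**
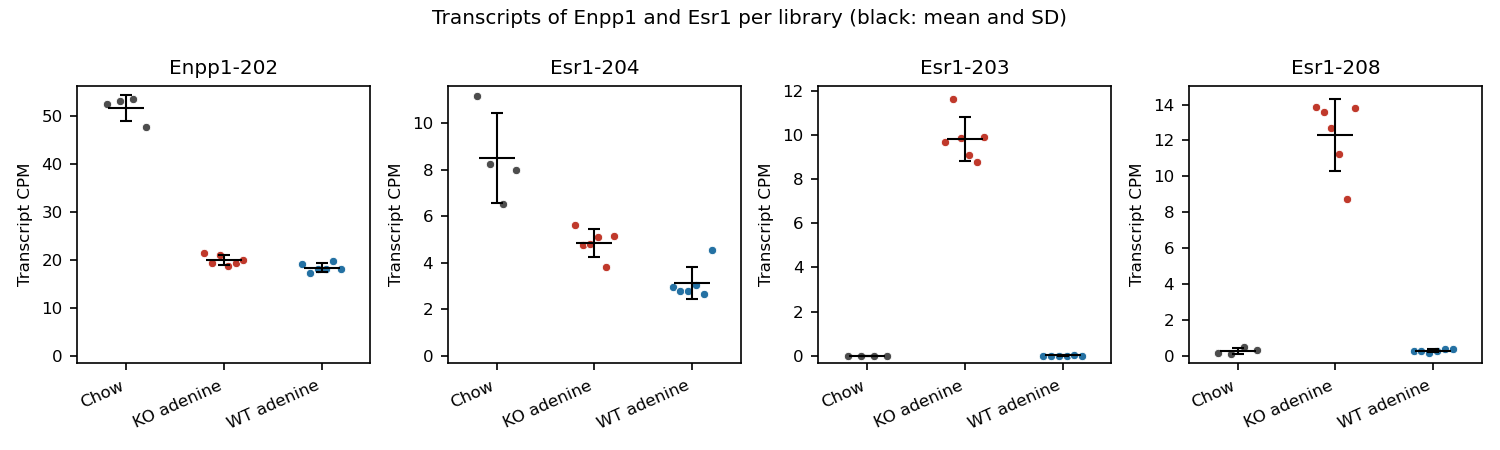
Transcript-level CPM (linear axis from 0) of Enpp1-202 and of 3 Esr1 transcripts in chow (n = 4), labelled knockout (KO) adenine (n = 6) and wild-type (WT) adenine (n = 6) libraries; points are libraries, black bars the mean and SD. Enpp1-202 is alike in both adenine groups, while Esr1-203 and Esr1-208 stand above 8 CPM in each labelled knockout library and below 1 CPM in every other.

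Against chow, 6815 of 16965 genes rose in the labelled knockouts (40.2%) and 6770 fell (39.9%), while 3380 (19.9%) did not pass the test. By size, 3159 genes (18.6%) rose and 1925 (11.3%) fell at least 2-fold. All 6 labelled knockout libraries lay above all 4 chow libraries for 5710 genes (33.7%) and below them for 6109 (36.0%). With most genes called, a member's call says little alone, and each list below is read against these shares and against the median log2 change over all genes tested, 0.03. Upper-quartile scaling moved that median to 0.19 and the higher share of genes changed at least 2-fold from 62.1% to 73.6%. Set beside this, wild type on adenine against the same chow libraries gave 7459 genes higher (44.0%) and 6947 lower (40.9%), with 3955 and 3101 of them at least 2-fold. Between the adenine groups, 4260 genes (25.1%) were higher and 3613 (21.3%) lower in the labelled knockouts than in wild type, of which 549 (3.24%) and 60 (0.354%) by at least 2-fold. Under upper-quartile scaling that balance turned over, with 3486 higher and 5063 lower, so the higher share went from 54.1% to 40.8%.

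**Figure D2:**
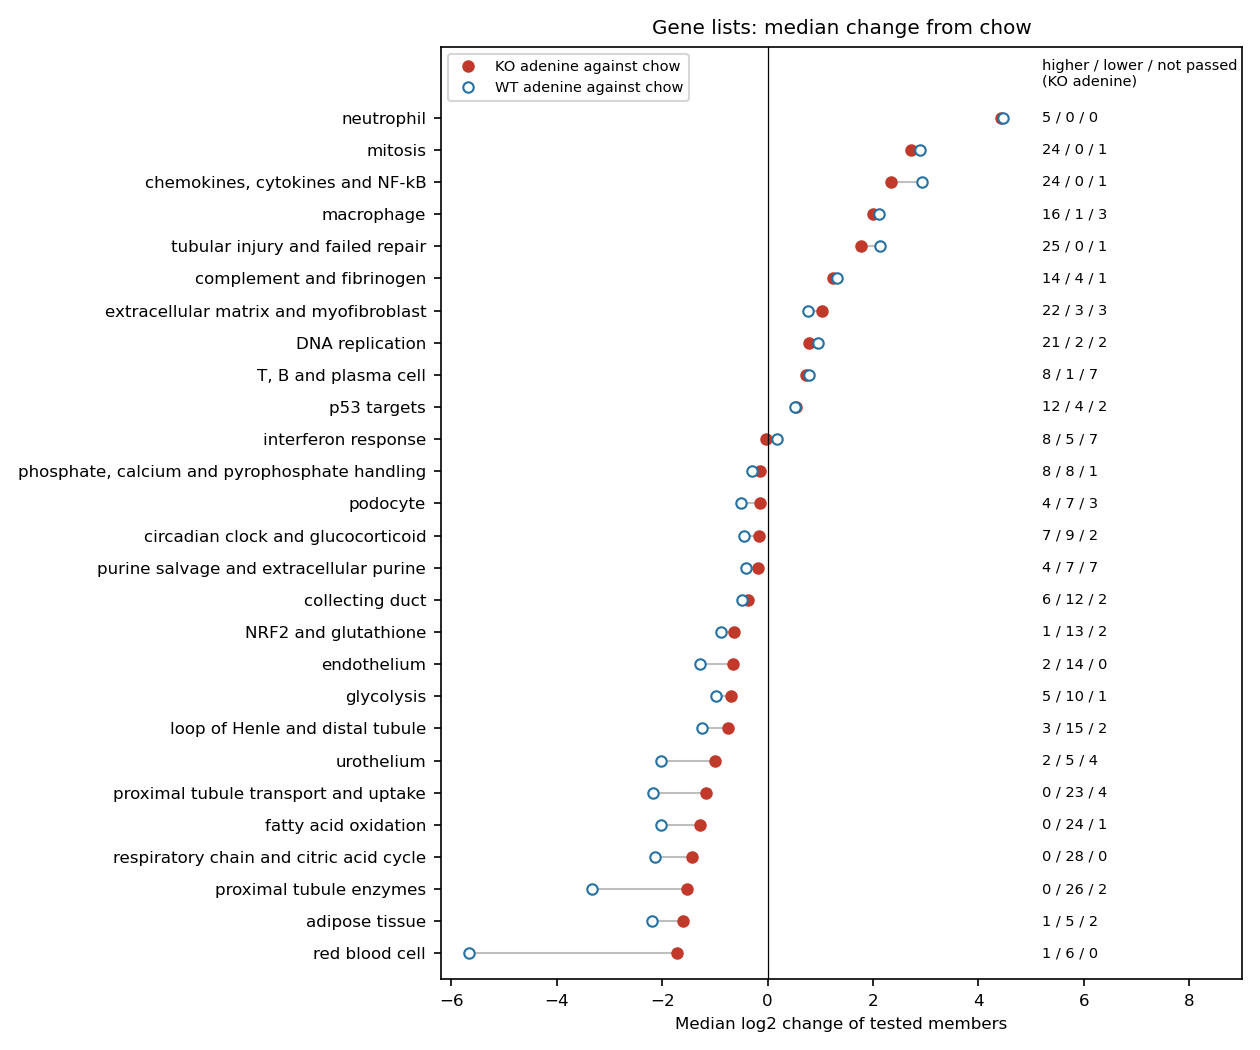
Median log2 change from chow over the tested members of each gene list (horizontal axis) in labelled knockout adenine (filled) and wild-type adenine (open), which share the 4 chow libraries; the right column counts members higher, lower and not past the threshold in the labelled knockouts. Lists of mitosis, chemokines, macrophages and injury lie to the right and those of the proximal tubule, respiration and red blood cells to the left, with the labelled knockouts nearer 0 than wild type for most of the latter.

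The largest changes were taken among protein-coding genes of at least 5 CPM, with an edgeR adjusted p under 0.05, whose groups did not overlap. For these genes the lack of overlap and the adjusted p therefore restate the rule. The 10 largest rises were those of Sprr2f (a cornified envelope protein), Havcr1 (kidney injury molecule 1), Il1f6 (the cytokine IL-36 alpha), Cxcl5 and Cxcl2 (neutrophil chemokines), Ikzf4 (a zinc finger transcription factor), Mmp7 (matrilysin), Krt20 (a keratin), Timp1 (an inhibitor of matrix proteases) and Il1rn (the interleukin 1 receptor antagonist). The labelled knockouts held 171 (lowest), 209 (median) and 262 (highest) CPM of Havcr1 RNA, and chow 0.336, 0.419, 1.04 and 0.659 CPM. Every labelled knockout library was over 100-fold above every chow library, and the log2 change was 8.41 ± 0.29 (SE, edgeR adjusted p = 2.51e-14). Wild type stood at 209 ± 54.7 CPM (mean ± SD, n = 6), and the log2 difference between the adenine groups was 0.01 (95% interval -0.29 to 0.31). Sprr2f, which belongs to a family of near-identical genes and is uncertain for that reason, had 10.2 (lowest), 18.2 (median) and 22.4 (highest) CPM against 0, 0.0524, 0 and 0 CPM. With so few chow reads its ratio was 1328 (95% interval 238 to 52462) by counting error alone, that of Il1f6 385 (95% interval 107 to 3185), that of Cxcl5 243 (95% interval 82.9 to 1178) and that of Ikzf4 232 (95% interval 79.1 to 1125). For Mmp7 the labelled knockouts held 10.7 (lowest), 14.1 (median) and 19.4 (highest) CPM and chow 0.0959, 0.105, 0.0989 and 0 CPM, a log2 change of 7.46 that rests on 6 chow reads. Mmp7 was lower than in wild type by a log2 difference of -0.65 (edgeR adjusted p = 0.000618), as were Krt20 (-0.63, edgeR adjusted p = 0.00383) and Cxcl2 (-0.87, edgeR adjusted p = 0.000109), while Timp1 (0.10, edgeR adjusted p = 0.51) and Il1rn (-0.17, edgeR adjusted p = 0.386) did not pass that test. Without labelled knockout replicate 5 the difference of Il1rn was -0.35 and passed (edgeR adjusted p = 0.0196).

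The 10 largest falls by the same rule were those of Igf2 (insulin-like growth factor 2), Scd1 (stearoyl-CoA desaturase), Cyp2a4 (a cytochrome P450), Chrdl1 (a BMP antagonist), Exosc6 (an RNA exosome subunit), Akr1c18 and Akr1c14 (steroid-reducing enzymes), Mep1b (a meprin peptidase of the brush border), Aadat (an aminotransferase of the kynurenine pathway) and Ugt3a1 (a glycosyltransferase). Igf2 had 6.19 (lowest), 7.29 (median) and 8.65 (highest) CPM in the labelled knockouts against 106, 101, 92.7 and 98.0 CPM in chow. The log2 change was -3.74 ± 0.11 (SE, edgeR adjusted p = 2.37e-15), where the lack of overlap and an adjusted p under 0.05 were part of the rule. For Scd1 the labelled knockouts held 48.6 (lowest), 54.6 (median) and 61.2 (highest) CPM and chow 792, 747, 618 and 683 CPM, a log2 change of -3.70. Scd1 (log2 difference 1.29), Mep1b (1.66), Aadat (1.91) and Ugt3a1 (2.16) remained higher than in wild type, with edgeR adjusted p of 9.98e-07, 1.8e-05, 1.61e-05 and 4.32e-08. Exosc6 was uneven: 0 (lowest), 0 (median) and 3.81 (highest) CPM in the labelled knockouts, with an SD of 1.58 around the mean of 0.931. Cyp2a4 and the Akr1c genes have close relatives among which reads may be split.

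Proximal tubule transporters and receptors fell as a group. Of 27 tested members, 0 rose, 23 fell and 4 did not pass, with a median log2 change of -1.16, beside 39.9% of all genes falling. Lrp2, the uptake receptor megalin, had 345 (lowest), 488 (median) and 683 (highest) CPM against 1662, 1705, 1574 and 1635 CPM. Every labelled knockout library was under the lowest chow library, and the log2 change was -1.72 ± 0.16 (SE, edgeR adjusted p = 1.24e-08). The water channel Aqp1 changed by -2.20, the amino acid transporter Slc7a13 by -2.05 and the fatty acid transporter Slc27a2 by -1.53 on the log2 scale. Slc7a13 was low throughout, at 0.248 to 0.627 CPM in the labelled knockouts and 1.31 to 2.67 CPM in chow. Its log2 difference from wild type did not pass (0.28, edgeR adjusted p = 0.431). In wild type Lrp2 stood at 279 ± 68.5 CPM (mean ± SD, n = 6), so that the labelled knockouts were higher by a log2 difference of 0.84 (edgeR adjusted p = 0.000166). Against wild type 23 of the 27 tested members were higher and 0 lower, beside 25.1% and 21.3% of all genes.

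The 4 proximal tubule members that did not pass included the main phosphate cotransporter. Slc34a1 had 2061 (lowest), 3245 (median) and 4173 (highest) CPM and chow 2749, 2880.2, 3093 and 3002 CPM. These ranges overlapped, with 3 labelled knockout libraries above every chow library and replicate 5 below them all. The log2 change was 0.13 ± 0.17 (SE, edgeR adjusted p = 0.513), with a 95% interval of -0.24 to 0.49. Corrected for transcript length the change was 0.42 and passed (edgeR adjusted p = 0.0353). Wild type held 1291 ± 312 CPM (mean ± SD, n = 6), all below the lowest labelled knockout library, and the log2 difference was 1.31 (edgeR adjusted p = 2.77e-06). Slc13a1, a sulfate cotransporter, was near chow in both adenine groups, with log2 changes of -0.01 in the labelled knockouts and 0.13 in wild type. The neutral amino acid transporter Slc6a19 had 106 (lowest), 201 (median) and 282 (highest) CPM and chow 258, 288, 275 and 285 CPM, a log2 change of -0.47 (edgeR adjusted p = 0.0571), where wild type differed from chow by -2.76. The fall of Slc6a19 passed under RLE scaling (-0.48, edgeR adjusted p = 0.0495), limma voom (-0.53, adjusted p = 0.0456) and a correction for transcript length (-0.51, edgeR adjusted p = 0.0466). It also passed with only the 10 libraries compared (-0.44, edgeR adjusted p = 0.0382) and without wild-type replicate 1 or 5. Without labelled knockout replicate 2 its log2 change was -0.60 and passed (edgeR adjusted p = 0.0163). Under the other alternatives run its call did not change. The sodium-proton exchanger Slc9a3 changed by -0.17 (edgeR adjusted p = 0.144). Slc34a3, the minor phosphate cotransporter, fell, with 27.9 (lowest), 45.0 (median) and 60.3 (highest) CPM against 82.9, 82.6, 81.4 and 84.0 CPM. The member Slco1a1 had too few reads to be tested.

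Enzymes of the proximal tubule gave the widest gap between the adenine groups among the nephron lists. Of 28 tested, 26 fell against chow and 2 did not pass, with a median log2 change of -1.53. Of the 28, 27 were higher than in wild type, beside 25.1% of all genes. Kap, an abundant androgen-regulated kidney protein, had 1714 (lowest), 1849 (median) and 1985 (highest) CPM against 17192, 15681, 14666 and 15677 CPM, and wild type 358 ± 172 CPM (mean ± SD, n = 6). Each labelled knockout library thus lay between the other groups, and the log2 change was -3.09 ± 0.26 (SE, edgeR adjusted p = 2.07e-09). Hpd, an enzyme of tyrosine breakdown, held 54.4 (lowest), 91.0 (median) and 142 (highest) CPM in the labelled knockouts and 205, 241, 226 and 228 CPM in chow, without overlap. In wild type Hpd was almost gone, at 3.37 ± 2.69 CPM (mean ± SD, n = 6), a log2 difference of 4.79 between the adenine groups (edgeR adjusted p = 1.15e-08). Dpys, which breaks down pyrimidines, followed the same order with mean levels of 8.51 CPM in the labelled knockouts, 26.6 in chow and 0.330 in wild type. Hao2, a peroxisomal hydroxyacid oxidase, fell by 2.59 on the log2 scale and the meprin subunit Mep1a by 2.16. Agxt2 (-0.14, edgeR adjusted p = 0.25) and Cyp7b1 (-0.04, edgeR adjusted p = 0.764) were the members that did not pass. In bulk tissue, fewer cells of a type and less RNA per cell cannot be told apart.

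**Figure D3:**
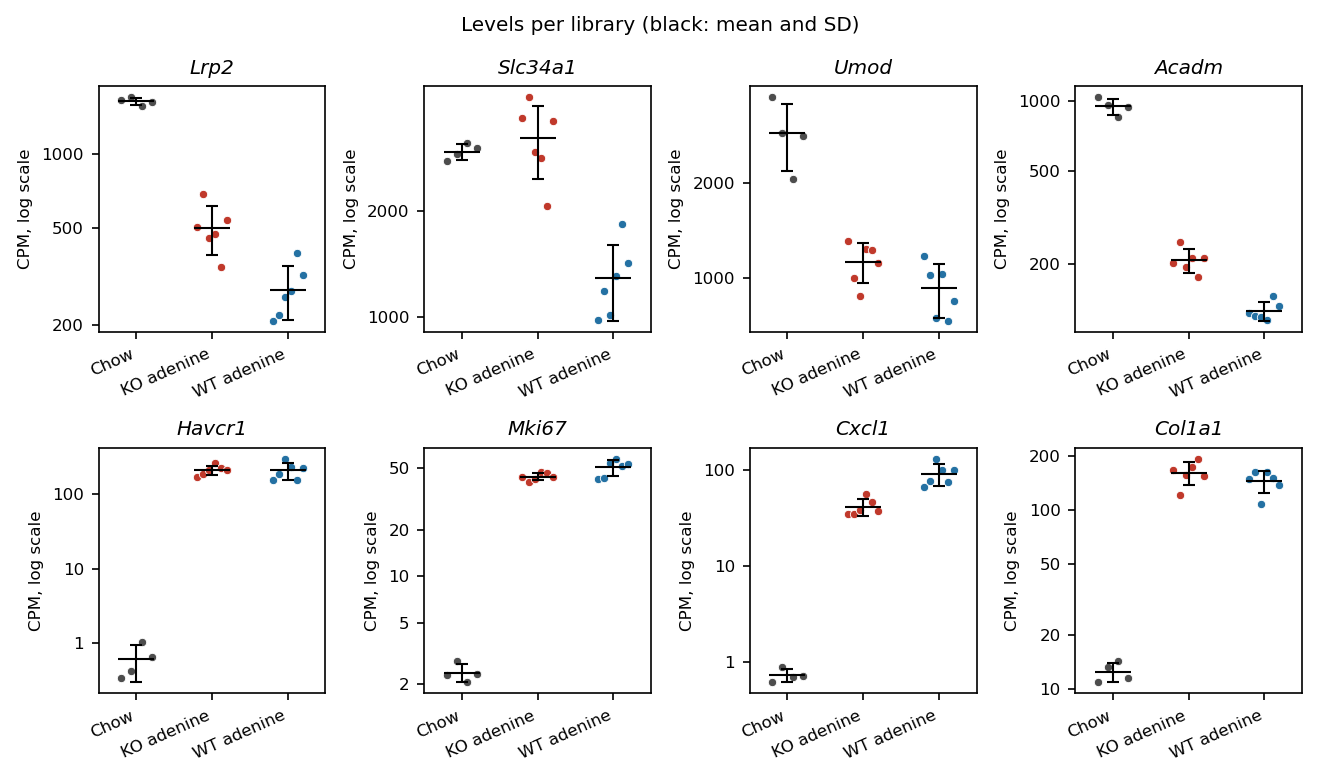
CPM per library on log axes for 8 genes in chow (n = 4), labelled knockout (KO) adenine (n = 6) and wild-type (WT) adenine (n = 6); points are libraries, black bars the mean and SD. The labelled knockouts lie between chow and wild type for Acadm, have a mean between them for Lrp2 with 1 library inside the wild-type range, overlap chow for Slc34a1, and stand with wild type far above chow for Havcr1, Mki67 and Col1a1.

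Farther along the nephron the falls were smaller and some genes rose. Among markers of Henle's loop and the distal tubule, 15 of 20 tested members fell, 3 rose and 2 did not pass, with a median log2 change of -0.75. Umod, uromodulin of the thick ascending limb, had 875 (lowest), 1169 (median) and 1308 (highest) CPM against 3746, 2893, 2057 and 2815 CPM, without overlap, and the log2 change was -1.35 ± 0.16 (SE, edgeR adjusted p = 1.74e-07). Wild type stood at 925 ± 178 CPM (mean ± SD, n = 6), and the log2 difference of 0.28 between the adenine groups did not pass (edgeR adjusted p = 0.11). Without wild-type replicate 1 it was 0.36 and passed (edgeR adjusted p = 0.0443), as it did with the replicate number as a block (0.29, edgeR adjusted p = 0.0154). Pvalb, a calcium buffer of the distal convoluted tubule, fell by 2.71 and Egf, the epidermal growth factor precursor, by 1.78 on the log2 scale. Slc12a3, the thiazide-sensitive salt cotransporter of that same segment, went the other way. Its labelled knockout libraries held 1345 (lowest), 1706 (median) and 2211 (highest) CPM and chow 475, 445, 642 and 533 CPM, with no overlap, and the log2 change was 1.72 ± 0.13 (SE, edgeR adjusted p = 3.23e-10). Slc12a3 was also higher than in wild type, which had 1132 ± 85.8 CPM (mean ± SD, n = 6), by a log2 difference of 0.61 (edgeR adjusted p = 0.000149). Wnk4, a kinase that regulates this cotransporter, rose by 1.53, and the claudin Cldn19 by 0.50, which with a correction for transcript length was 0.17 and did not pass (edgeR adjusted p = 0.199). The magnesium channel Trpm6 (0.13) did not pass. Without chow replicate 3 its log2 change was 0.24 and did (edgeR adjusted p = 0.00111). Trpm6 also passed with only the 10 libraries compared (0.17, edgeR adjusted p = 0.0349) and without wild-type replicate 4 (0.16, edgeR adjusted p = 0.0392). Without mitochondrially encoded genes it passed as well (0.175, edgeR adjusted p = 0.0217).

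In the collecting duct 12 of 20 tested members fell, 6 rose and 2 did not pass, with a median log2 change of -0.37. Aqp2, the vasopressin-regulated water channel, had 138 (lowest), 160.4 (median) and 313 (highest) CPM against 528, 460.1, 348 and 437 CPM. The highest labelled knockout library was replicate 3, and all 6 lay below chow. The log2 change was -1.27 ± 0.20 (SE, edgeR adjusted p = 7.92e-06), and without replicate 3 the log2 change was -1.49. Avpr2, the vasopressin receptor, changed by -1.34 and Aqp3 by -1.26. Among the genes that rose, Slc4a9, an anion exchanger of intercalated cells, had 193 (lowest), 231 (median) and 238 (highest) CPM against 78.7, 77.0, 111 and 91.1 CPM, a log2 change of 1.32. Slc4a1, the exchanger of acid-secreting cells that red blood cells also carry, fell by 1.86 on the log2 scale. The sodium channel subunit Scnn1b (0.09) and the water channel Aqp4 (-1.21, edgeR adjusted p = 0.0997) did not pass, and Aqp4 ranged from 0.848 to 12.9 CPM over the labelled knockouts. Without replicate 3, its highest library, the log2 change of Aqp4 was -1.96 (edgeR adjusted p = 0.0088). Aqp4 also passed under limma voom (-1.88, adjusted p = 0.00266) and without wild-type replicate 1 (-1.20, edgeR adjusted p = 0.044). Scnn1b passed with only the 10 libraries compared (0.12, edgeR adjusted p = 0.0399).

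Genes of mitochondrial fuel use fell together. Of 25 tested members of fatty acid oxidation 24 fell and 1 did not pass, with a median log2 change of -1.28, and of 28 respiratory chain and citric acid cycle genes all 28 tested fell, with a median of -1.43. Acadm, the medium-chain acyl-CoA dehydrogenase, had 176 (lowest), 207 (median) and 249 (highest) CPM against 1037, 961, 855 and 938 CPM. The groups were far apart, and the log2 change was -2.19 ± 0.086 (SE, edgeR adjusted p = 9.13e-14). Ehhadh, a peroxisomal enzyme of the same pathway, changed by -2.38, and Etfb, which passes electrons from this pathway to the respiratory chain, by -1.81. Ppara, the nuclear receptor that drives these genes, did not pass: the labelled knockouts held 19.1 (lowest), 27.8 (median) and 33.4 (highest) CPM and chow 24.4, 27.5, 29.5 and 27.2 CPM, with overlap. Its coactivator Ppargc1a fell by 0.87, and differed from wild type by 0.04 (edgeR adjusted p = 0.717).

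Suclg1, a succinyl-CoA ligase subunit, led the respiratory list at 61.6 (lowest), 96.9 (median) and 135 (highest) CPM against 411, 400.1, 328 and 376 CPM, a log2 change of -1.95. Sdhb of complex II changed by -1.90, and the ATP synthase subunit Atp5b by -1.66. All 28 tested members of the respiratory list and 21 of 25 for fatty acid oxidation were higher than in wild type, beside 25.1% of all genes. Suclg1, for example, stood at 30.2 ± 1.80 CPM (mean ± SD, n = 6) there, a log2 difference of 1.70 (edgeR adjusted p = 2.59e-08). Citrate synthase, Cs, changed less, with a log2 change of -0.78 against chow and a difference of 0.19 from wild type. Glycolysis was mixed, with 5 of 16 tested members higher, 10 lower and 1 not passing. Hexokinase 2, Hk2, rose from 1.15, 1.83, 1.34 and 1.17 CPM in chow to 12.3 (lowest), 14.0 (median) and 19.6 (highest) CPM, a log2 change of 3.41, while Pgam1, a later glycolytic enzyme, fell by 1.44.

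Injury genes of the tubule stayed high in the labelled knockouts. Of 26 tested members 25 rose, 0 fell and 1 did not pass, with a median log2 change of 1.78, beside 40.2% of all genes rising. Lcn2, the iron-binding protein NGAL, had 215 (lowest), 258 (median) and 337 (highest) CPM against 5.47, 5.61, 4.30 and 4.26 CPM. Every labelled knockout library was over 30-fold above every chow library, and the log2 change was 5.72 ± 0.15 (SE, edgeR adjusted p = 1.71e-15). Spp1, osteopontin, ran from 11711 to 16043 CPM against 1621 to 1794 in chow, a log2 change of 2.99. Vcam1, an adhesion molecule of failed-repair tubule cells, had 128 (lowest), 166 (median) and 202 (highest) CPM against 12.6, 14.9, 14.3 and 13.3 CPM, a log2 change of 3.60. The transcription factor Sox9, which marks regenerating tubule cells, had 17.5 (lowest), 19.0 (median) and 22.0 (highest) CPM against 0.959, 0.681, 0.989 and 0.963 CPM, and the log2 change was 4.42 ± 0.22 (SE, edgeR adjusted p = 1.34e-12). Sox9 was lower than in wild type, which held 36.5 ± 7.62 CPM (mean ± SD, n = 6). The log2 difference was -0.91 (edgeR adjusted p = 3.87e-06).

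Relative to wild type 15 of the 26 tested injury genes were lower, 0 higher and 11 did not pass, beside 21.3% of all genes lower. The median log2 difference was -0.33. The stress factor Atf3 differed by -0.88 (edgeR adjusted p = 5.02e-05), Vcam1 by -0.58 (edgeR adjusted p = 0.000352) and Spp1 by -0.33 (edgeR adjusted p = 0.013). For Lcn2 the difference of -0.15 did not pass (edgeR adjusted p = 0.203), though without labelled knockout replicate 5 it was -0.24 and did (edgeR adjusted p = 0.0163), and for the keratin Krt8 it was -0.03 (edgeR adjusted p = 0.771). Cryab, a small heat shock protein, did not pass against chow, with 90.8 (lowest), 137 (median) and 219 (highest) CPM in the labelled knockouts and 211, 207, 176 and 194 CPM in chow. Its log2 change was -0.39, and passed at -0.52 without replicate 3 (edgeR adjusted p = 0.00718) and at -0.50 without replicate 5 (edgeR adjusted p = 0.0138). Cryab also passed under limma voom (-0.455, adjusted p = 0.0296) and with the replicate number as a block (-0.50, edgeR adjusted p = 0.03).

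Of 18 tested p53 targets 12 rose, 4 fell and 2 did not pass, with a median log2 change of 0.54. Cdkn1a, the cell cycle inhibitor p21, had 19.9 (lowest), 26.0 (median) and 30.7 (highest) CPM against 10.6, 11.2, 9.55 and 9.99 CPM, without overlap, and the log2 change was 1.31 ± 0.12 (SE, edgeR adjusted p = 5.61e-09). Its difference from wild type was -0.02 (95% interval -0.21 to 0.18). The pro-apoptotic gene Bbc3 changed by 2.07, and Gtse1, which is also a mitotic gene, by 3.24. Cyclin G1, Ccng1, went the other way, from 152, 144, 133 and 139.6 CPM in chow to 64.7 (lowest), 71.1 (median) and 82.6 (highest) CPM, a log2 change of -0.99.

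Genes of mitosis rose in the labelled knockouts. Of 25 tested 24 rose and 1 did not pass, all 24 at least 2-fold, with a median log2 change of 2.71. Mki67, the proliferation antigen, had 40.7 (lowest), 43.9 (median) and 47.4 (highest) CPM against 2.30, 2.83, 2.08 and 2.33 CPM. The 6 libraries were close to each other and well clear of chow, and the log2 change was 4.21 ± 0.11 (SE, edgeR adjusted p = 1.76e-15). The kinase gene Aurkb changed by 3.92 and Cdc20, an activator of the anaphase-promoting complex, by 2.55. Against wild type 8 of the 25 were lower and 17 did not pass, beside 21.3% of all genes lower. Mki67 differed from wild type by -0.19 (edgeR adjusted p = 0.0281) and Cdc20 by -0.01 (95% interval -0.20 to 0.19). The Mki67 difference did not pass without replicate 2 or 3 of the labelled knockouts or replicate 3, 4 or 6 of wild type, at -0.15 to -0.18, nor with a correction for transcript length (-0.19, edgeR adjusted p = 0.0559). Bub1, a spindle checkpoint kinase, did not pass against chow, with 0 (lowest), 0.112 (median) and 2.58 (highest) CPM against 0.144, 0.629, 0 and 0.101 CPM; its reads were uneven within each group.

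DNA replication genes rose less. Of 25 tested 21 rose, 2 fell and 2 did not pass, with a median log2 change of 0.79. Uhrf1, which maintains DNA methylation, had 16.1 (lowest), 17.9 (median) and 22.7 (highest) CPM against 1.15, 1.89, 1.58 and 1.72 CPM, a log2 change of 3.56, and Rrm2, a ribonucleotide reductase subunit, changed by 2.11. The licensing factor Cdc6 rose from 0.767, 0.629, 0.445 and 0.456 CPM in chow to 1.77 (lowest), 2.32 (median) and 2.69 (highest) CPM, a log2 change of 1.96. Mcm6, a subunit of the replicative helicase, did not pass. It had 15.9 (lowest), 19.5 (median) and 21.1 (highest) CPM and chow 20.9, 19.96, 16.5 and 18.8 CPM, with overlap, a log2 change of 0.01 (95% interval -0.16 to 0.18). The sliding clamp gene Pcna, often used as a proliferation marker, had 37.4 (lowest), 39.0 (median) and 43.8 (highest) CPM and chow 47.2, 42.0, 36.8 and 38.8 CPM, also with overlap, a log2 change of -0.06 (95% interval -0.22 to 0.10). Thymidylate synthase, Tyms, was lower by 0.22 on the log2 scale, but by 0.06 under upper-quartile scaling, which did not pass.

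Promoter windows of RefSeq genes on GRCm38.p6, from 250 bases before to 50 after each start, were searched on both strands for short letters known from cell cycle, inflammatory and proximal tubule promoters. The letters TTTGAA of the cell cycle homology region (CHR), through which mitotic genes are held off outside division, stood in 15 of the 20 mitosis genes with a window (75.0%), against 20.2% of all 27025 genes. CCAAT stood in 17 of the 20 (85.0%), in 14 of 21 DNA replication genes (66.7%) and in 12 of 16 clock and glucocorticoid genes (75.0%), against 41.1% of all genes. The E2F letters TTTCCCGC or TTTGGCGC stood in 9 of 21 DNA replication genes (42.9%) against 1.8%. The HNF1 letters stood in 0 of 24 proximal tubule transport genes and the HNF4 letters CAAAGTCCA in 1 (4.2%), against 0.5% and 0.6% of all genes, and the AP-1 letters TGANTCA in 5 of 20 injury genes and 5 of 17 chemokine genes (29.4%), against 9.0%. These matches are descriptions of the letters, not evidence of binding, and matches to different letters did not overlap in the genes shown. Stretches are given for 2 genes that rose in the mitosis list and for a DNA replication gene that rose beside one that did not pass, with the matched letters in capitals, read 5′ to 3′ on the gene's strand.
Mki67, CHR letters, chr7:135716452-135716515, reverse strand: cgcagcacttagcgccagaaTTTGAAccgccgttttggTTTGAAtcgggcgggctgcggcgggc
Cdc20, CHR letters, chr4:118437336-118437381, reverse strand: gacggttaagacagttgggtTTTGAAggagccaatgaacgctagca
Cdc6, E2F letters, chr11:98907993-98908040, forward strand: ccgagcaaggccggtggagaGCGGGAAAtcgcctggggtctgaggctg
Mcm6, E2F letters, chr1:128359725-128359835, reverse strand: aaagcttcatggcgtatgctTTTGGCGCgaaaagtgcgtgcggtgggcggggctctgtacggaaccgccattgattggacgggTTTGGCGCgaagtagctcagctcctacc
Cdc6 rose and Mcm6 did not pass, and both carry the E2F letters.

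Chemokines, cytokines and NF-kB genes rose, and most of them stood below wild type. Of 25 tested 24 rose and 1 did not pass, with a median log2 change of 2.35. Against wild type 17 were lower, 1 higher and 7 did not pass, beside 21.3% of all genes lower. The median log2 difference was -0.49. The letters GGGA, any base and TTTCC of NF-kB sites stood in the windows of 6 of the 17 genes that had one (35.3%), against 0.5% of all genes. They are shown for the neutrophil chemokines Cxcl1 and Cxcl2, which rose, and for Nfkbia, the inhibitor of NF-kB, which did not pass.
Cxcl1, NF-kB letters, chr5:90891154-90891203, forward strand: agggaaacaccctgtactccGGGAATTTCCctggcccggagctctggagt
Cxcl2, NF-kB letters, chr5:90903782-90903831, forward strand: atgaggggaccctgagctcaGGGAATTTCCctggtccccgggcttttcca
Nfkbia, NF-kB letters, chr12:55492647-55492696, reverse strand: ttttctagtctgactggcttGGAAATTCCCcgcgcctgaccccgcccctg
Cxcl1 had 34.4 (lowest), 37.8 (median) and 55.3 (highest) CPM in the labelled knockouts against 0.623, 0.891, 0.692 and 0.710 CPM in chow, and the log2 change was 5.81 ± 0.29 (SE, edgeR adjusted p = 2.15e-12). Wild type held 90.5 ± 23.7 CPM (mean ± SD, n = 6), with every library above those of the labelled knockouts (log2 difference -1.14, edgeR adjusted p = 4.93e-06). Cxcl2 had 6.03 (lowest), 9.12 (median) and 14.0 (highest) CPM against 0, 0.0524, 0.198 and 0.101 CPM, a log2 change of 6.67 that rests on 7 chow reads. For Nfkbia the labelled knockouts held 110.1 (lowest), 119 (median) and 126 (highest) CPM and chow 125, 119.5, 109 and 116 CPM, with overlap and a log2 change of 0.00 (95% interval -0.11 to 0.11). In wild type Nfkbia stood at 158 ± 6.28 CPM (mean ± SD, n = 6), above all libraries of the other groups (log2 difference -0.42, edgeR adjusted p = 9.64e-07).

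Ccl2, the monocyte chemokine, had 4.62 (lowest), 7.98 (median) and 10.2 (highest) CPM against 0.815, 0.734, 1.24 and 0.811 CPM, without overlap, and the log2 change was 3.11 ± 0.23 (SE, edgeR adjusted p = 4.1e-10). The cytokine Lif, of the interleukin 6 family, had 15.7 (lowest), 20.8 (median) and 25.1 (highest) CPM against 0.384, 0.576, 0.297 and 0.355 CPM, a log2 change of 5.68, and its log2 difference from wild type was -0.89 (edgeR adjusted p = 2.27e-06). Ccl20, which attracts dendritic cells and T cells, had 2.77 (lowest), 3.62 (median) and 4.98 (highest) CPM against 0.0480, 0, 0 and 0.152 CPM, and rests on 4 chow reads.

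Complement and fibrinogen genes rose in part: of 19 tested 14 rose, 4 fell and 1 did not pass, with a median log2 change of 1.24. C3, the central complement component, had 337 (lowest), 484 (median) and 593 (highest) CPM against 15.3, 16.6, 19.1 and 15.7 CPM, a log2 change of 4.81. C4b changed by 3.00, and the fibrinogen chains Fgb and Fgg by 3.69 and 3.09. Factor B, Cfb, fell, with 225 (lowest), 254 (median) and 281 (highest) CPM against 376, 393, 371 and 373 CPM. The adipocyte protein Cfd also fell, from 4.65, 11.3, 3.02 and 6.74 CPM in chow to 0.147 (lowest), 0.470 (median) and 3.30 (highest) CPM, along with adipose markers given further on. Interferon-stimulated genes showed no common direction. Of 20 tested 8 rose, 5 fell and 7 did not pass, beside 40.2%, 39.9% and 19.9% of all genes. The median log2 change was -0.02. Oas2, a sensor of double-stranded RNA, had 22.0 (lowest), 25.5 (median) and 31.3 (highest) CPM against 3.64, 3.88, 6.58 and 3.60 CPM, a log2 change of 2.55, and the antiviral GTPase Mx1 changed by 2.12. Rsad2, the antiviral enzyme viperin, fell by 1.01, and Isg15 (0.22) and Ifit1 (-0.02) were among those that did not pass.

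Most matrix genes rose, and the median over the list was further from chow in the labelled knockouts than in wild type. Of 28 tested 22 rose, 3 fell and 3 did not pass, with a median log2 change of 1.04, where wild type had 0.76. Between the adenine groups 11 were higher in the labelled knockouts and 1 lower, and 16 did not pass, beside 25.1% of all genes higher and 21.3% lower. Col1a1, the chief collagen of scar, had 121 (lowest), 161 (median) and 192 (highest) CPM against 10.9, 13.2, 14.3 and 11.5 CPM, and the log2 change was 3.69 ± 0.14 (SE, edgeR adjusted p = 9.18e-14). Its difference from wild type was 0.15 (edgeR adjusted p = 0.247). Col6a3, a chain of microfibrillar collagen VI, had 40.6 (lowest), 46.0 (median) and 52.4 (highest) CPM against 21.6, 22.0, 24.5 and 23.8 CPM, without overlap, and the log2 change was 1.00 ± 0.089 (SE, edgeR adjusted p = 5.11e-09). Wild type stood at 24.6 ± 3.11 CPM (mean ± SD, n = 6), with a log2 change of 0.10 from chow, and the log2 difference was 0.90 (edgeR adjusted p = 7.03e-08). Ccn2, a target of TGF-beta and YAP that chow kidney expresses, fell from 111, 124, 111 and 116 CPM to 35.2 (lowest), 41.0 (median) and 44.2 (highest) CPM, a log2 change of -1.52. Acta2, the smooth muscle actin of myofibroblasts, also fell, by 0.45, and Postn, periostin, did not pass (-0.24, edgeR adjusted p = 0.367).

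Genes of phosphate, calcium and pyrophosphate handling split evenly, as all genes tested did, with 8 of 17 tested higher, 8 lower and 1 not passing. Over all genes 40.2% were higher, 39.9% lower and 19.9% did not pass. Kl, the FGF23 coreceptor klotho, had 126 (lowest), 181 (median) and 259 (highest) CPM against 482, 506, 469 and 475 CPM, and the log2 change was -1.38 ± 0.13 (SE, edgeR adjusted p = 1.77e-08). Kl was higher than in wild type by 0.87 (edgeR adjusted p = 1.8e-05). S100g, the calcium-binding protein calbindin-D9k, fell by 1.49. Cyp27b1, which makes active vitamin D, rose from 8.54, 10.3, 12.6 and 9.28 CPM to 25.8 (lowest), 30.0 (median) and 31.9 (highest) CPM, a log2 change of 1.54, and the calcium channel Trpv6 changed by 2.28. Both stood below wild type, with log2 differences of -0.47 (edgeR adjusted p = 0.000154) and -0.74 (edgeR adjusted p = 1.55e-05). Phospho1, a phosphatase of mineralising cells, had 2.29 (lowest), 3.27 (median) and 6.66 (highest) CPM against 2.45, 2.31, 2.08 and 2.69 CPM, which overlapped, though the log2 change of 0.72 passed (edgeR adjusted p = 0.0198). Without replicate 3 it was 0.59 (edgeR adjusted p = 0.0504) and without replicate 5 it was 0.50 (edgeR adjusted p = 0.0535). Of 18 tested genes of purine salvage and extracellular purines 4 rose, 7 fell and 7 did not pass, beside the same shares of all genes. Adk, adenosine kinase, fell by 1.81, with 25.9 (lowest), 41.0 (median) and 63.4 (highest) CPM against 152, 153, 133 and 148 CPM. Xdh, the oxidase that makes 2,8-dihydroxyadenine and urate, rose from 46.4, 54.4, 58.0 and 52.7 CPM to 81.9 (lowest), 88.4 (median) and 90.3 (highest) CPM, a log2 change of 0.73. Nt5e, the CD73 ectonucleotidase that acts after ENPP1, did not pass (-0.11, edgeR adjusted p = 0.336).

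The joint list of genes of NRF2, the antioxidant regulator, and of glutathione mostly fell: of 16 tested 1 rose, 13 fell and 2 did not pass, with a median log2 change of -0.65. Nqo1, a quinone reductase, had 17.9 (lowest), 24.5 (median) and 29.9 (highest) CPM against 72.2, 65.4, 66.7 and 66.1 CPM, and the log2 change was -1.51 ± 0.091 (SE, edgeR adjusted p = 1.88e-11). It was higher than in wild type, which held 10.1 ± 0.377 CPM (mean ± SD, n = 6), with a log2 difference of 1.23 (edgeR adjusted p = 1.88e-08). The transferase Gsta4 changed by -1.48 and Gpx4, which removes lipid peroxides, by -1.46. Slc7a11, the cystine transporter, was the member that rose (1.01). Of 18 clock and glucocorticoid genes 7 rose, 9 fell and 2 did not pass, beside 40.2%, 39.9% and 19.9% of all genes. Per1 had 95.4 (lowest), 118 (median) and 123 (highest) CPM against 35.5, 33.8, 43.2 and 36.6 CPM, a log2 change of 1.61, and Per2 changed by 1.35. Fkbp5, a glucocorticoid-induced chaperone partner, fell by 1.31. Zbtb16, another glucocorticoid-induced gene, had 2.49 (lowest), 3.31 (median) and 3.76 (highest) CPM against 17.1, 15.5, 16.7 and 17.99 CPM, and the log2 change was -2.39 ± 0.16 (SE, edgeR adjusted p = 1.16e-10). Wild type lay between, at 9.27 ± 2.47 CPM (mean ± SD, n = 6), and the labelled knockouts were lower by a log2 difference of -1.53 (edgeR adjusted p = 3.87e-07). Ciart, a repressor of the clock, had 10.8 (lowest), 15.2 (median) and 18.2 (highest) CPM against 5.08, 5.92, 7.52 and 6.13 CPM, while wild type stood at 6.04 ± 0.973 CPM (mean ± SD, n = 6). The log2 difference between the adenine groups was 1.32 (edgeR adjusted p = 3.27e-07). The hour of sampling is not given in the labels, and its part in these genes was not tested.

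Most macrophage markers rose, and 15 of 20 did not pass against wild type. Of 20 tested 16 rose, 1 fell and 3 did not pass, with a median log2 change of 2.00. Against wild type 4 were lower and 1 higher, where 21.3% of all genes were lower and 25.1% higher. Itgam, the integrin CD11b, had 19.98 (lowest), 22.6 (median) and 25.7 (highest) CPM against 1.25, 1.36, 1.73 and 1.42 CPM, without overlap, and the log2 change was 3.96 ± 0.16 (SE, edgeR adjusted p = 1.17e-13). Ccr2, the receptor for Ccl2 on monocytes, had 32.0 (lowest), 36.3 (median) and 40.5 (highest) CPM against 4.51, 4.03, 5.00 and 4.82 CPM, a log2 change of 2.98, and differed from wild type by 0.00 (95% interval -0.11 to 0.12). Gpnmb, a marker of lipid-laden macrophages, changed by 4.65, and Mrc1, the mannose receptor CD206, by 2.08. Csf1r, the growth factor receptor of these cells, did not pass, with 58.3 (lowest), 64.3 (median) and 70.8 (highest) CPM and 58.5, 54.8, 65.6 and 59.6 CPM in chow, though without chow replicate 3 its log2 change was 0.18 and passed (edgeR adjusted p = 0.033). Mertk, a receptor for dead cells that other kidney cells also express, fell by 0.38. All 5 neutrophil markers tested rose, beside 40.2% of all genes. Among them S100a9 had 4.15 (lowest), 8.52 (median) and 13.3 (highest) CPM against 0.432, 0, 0.247 and 0.304 CPM. The granule genes Mpo, Elane, Camp and Ngp and the surface marker Ly6g had too few reads to test. Markers near 0 CPM in chow, such as S100a9, passed the count filter through the adenine libraries and could hardly fall. The count of 5 and these rises are therefore a description. Of 16 tested T, B and plasma cell genes 8 rose, 1 fell and 7 did not pass, beside 40.2%, 39.9% and 19.9% of all genes. The T cell receptor chain Cd3e had 0.979 (lowest), 1.31 (median) and 1.40 (highest) CPM against 0.432, 0.629, 0.346 and 0.608 CPM, and Jchain, the joining chain of plasma cells, did not pass (0.20), though its log2 difference from wild type was -1.19 (edgeR adjusted p = 0.00185).

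Endothelial markers fell: of 16 tested 14 were lower, 2 higher and 0 did not pass, with a median log2 change of -0.65. Pecam1, the adhesion molecule CD31, had 27.0 (lowest), 35.2 (median) and 43.2 (highest) CPM against 58.1, 52.1, 52.5 and 54.0 CPM, and the log2 change was -0.62 ± 0.099 (SE, edgeR adjusted p = 1.33e-05). The VEGF receptor genes Flt1 and Kdr changed by -1.45 and -1.41, and Kdr stood above wild type by 1.10 (edgeR adjusted p = 2.71e-06). Vwf, von Willebrand factor, was higher than in chow (0.63). Of 14 tested podocyte genes 4 rose, 7 fell and 3 did not pass, beside 40.2%, 39.9% and 19.9% of all genes. Nphs1, nephrin of the filtration slit, did not pass, with 29.1 (lowest), 40.1 (median) and 47.3 (highest) CPM against 32.5, 37.3, 35.5 and 31.3 CPM, though without replicate 5 the log2 change was 0.24 and passed (edgeR adjusted p = 0.0358). Vegfa, which podocytes and tubules secrete, rose by 0.97.

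Markers of blood and of tissue around the kidney moved with the groups, and their part in the results above was not tested. Of 7 red blood cell genes tested 6 fell, 1 rose and 0 did not pass, with a median log2 change of -1.73, where wild type had -5.66. Hbb-bs, an adult beta globin, had 69.0 (lowest), 131 (median) and 182 (highest) CPM against 534, 488, 390.2 and 463 CPM, and wild type 8.71 ± 3.18 CPM (mean ± SD, n = 6). Globin reads made up 0.0231% to 0.0509% of a library in the labelled knockouts, 0.0762% to 0.0951% in chow and 0.0015% to 0.0039% in wild type, so that the 3 groups did not overlap. Values of the globin genes are uncertain because their copies are nearly identical. Of 11 urothelial genes tested 2 rose, 5 fell and 4 did not pass. The genes that rose include Sprr2f, given above. Upk3a, a plaque protein of the bladder lining, had 0.111 (lowest), 1.04 (median) and 1.48 (highest) CPM against 4.80, 4.14, 4.15 and 5.07 CPM. Of 8 adipose genes tested 5 fell, 1 rose and 2 did not pass, with Adipoq, adiponectin, at 0 (lowest), 0.0609 (median) and 0.366 (highest) CPM against 0.863, 1.62, 0.544 and 0.862 CPM. Of 7 adrenal genes 2 were tested, Star and Cyp11a1, and both were higher in the labelled knockouts, at 3.84 ± 0.460 against 2.19 ± 0.258 and 1.01 ± 0.468 against 0.372 ± 0.158 CPM (mean ± SD).

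The 6 labelled knockout libraries were not equally far from chow. A list level, the mean log2(CPM + 1) of its tested members, was used to place each library. For proximal tubule transport the labelled knockout levels ran from 6.85 in replicate 5 over a median of 7.33 to 7.71 in replicate 2, against 8.35 to 8.38 in chow and 5.99 to 6.61 in wild type. Replicate 5 was also lowest and replicate 2 highest for proximal tubule enzymes (6.73 and 7.76), fatty acid oxidation (6.12 and 6.74), the respiratory list (7.24 and 7.76), podocytes (5.25 and 5.79) and red blood cells (4.18 and 5.07). In the other direction replicate 5 had the highest level for the injury list (6.82), chemokines (4.66), macrophages (4.53) and matrix (5.64), and replicate 2 the lowest for injury (6.39), macrophages (4.26) and matrix (5.302). For mitosis the span was narrow, from 3.06 in replicate 2 to 3.28 in replicate 4, against 1.23 to 1.33 in chow. No labelled knockout library reached the chow range for the proximal tubule, respiratory, injury, chemokine or mitosis lists, while for podocytes replicate 2 (5.79) lay within the chow range of 5.76 to 5.88. These levels describe the samples, and no test was made on them.

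**Figure D4:**
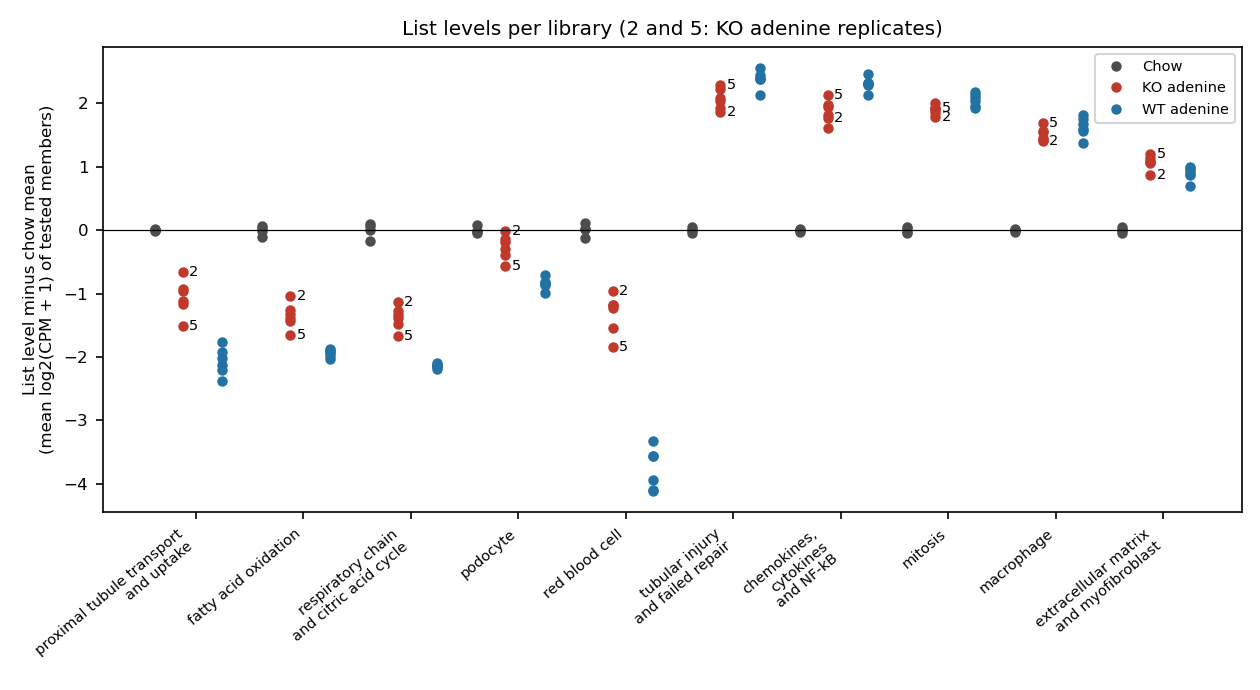
Level of 10 gene lists in each library minus the chow mean (vertical axis, mean log2(CPM + 1) of tested members); points are libraries, and the numbers 2 and 5 mark those replicates of the labelled knockout group. Among the labelled knockouts, replicate 5 lies farthest from chow and replicate 2 nearest in the proximal tubule, fatty acid, respiratory, injury, macrophage and matrix lists, and the red blood cell list shows the widest gap between the adenine groups.

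Some genes stood further from chow in the labelled knockouts than in wild type, against the order of most of the nephron lists. Described here are 8 of them, chosen after their values were seen and not as the whole set. Others include the nephron gene Slc12a3, given above, and the collagen gene Col5a1. Esr1, given above, is among them by its gene sum, though its transcript Esr1-204 had a median between those of wild type and chow. Pdk4, a kinase that holds back glucose oxidation and is induced by fasting and glucocorticoids, had 8.54 (lowest), 9.67 (median) and 11.8 (highest) CPM against 26.6, 23.4, 21.2 and 22.8 CPM, without overlap, and a log2 change of -1.25, while wild type stood at 25.2 ± 2.93 CPM (mean ± SD, n = 6). Angptl4, an inhibitor of lipoprotein lipase, fell by 1.41 in the labelled knockouts, to 13.8 (lowest), 25.02 (median) and 33.8 (highest) CPM, where wild type had a log2 change of -0.58. Together with Zbtb16 above, these are the falls among the 8. Among the rises, Abcc6, a transporter through which cells release ATP, the substrate of ENPP1, and whose loss in people leads to ectopic mineral, had 19.3 (lowest), 27.7 (median) and 30.7 (highest) CPM against 11.4, 10.1, 11.1 and 11.8 CPM. All 6 libraries lay above chow, with a log2 change of 1.24, and wild type stood at 12.1 ± 1.60 CPM (mean ± SD, n = 6). Mgp, matrix Gla protein, an inhibitor of vessel calcification, had 209.9 (lowest), 248 (median) and 277 (highest) CPM against 106, 121, 115 and 114 CPM, and wild type 166 ± 17.1 CPM (mean ± SD, n = 6). Chrna4, a nicotinic receptor subunit, had 50.6 (lowest), 78.6 (median) and 96.2 (highest) CPM against 25.4, 28.03, 33.8 and 28.9 CPM, a log2 change of 1.40, where wild type had one of -0.42. Ciart and Col6a3, given above, complete the set. The fitted log2 differences from wild type were -1.35 for Pdk4, -0.83 for Angptl4, 1.12 for Abcc6, 0.57 for Mgp and 1.82 for Chrna4. These genes were picked by those differences, which therefore are a description.

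**Figure D5:**
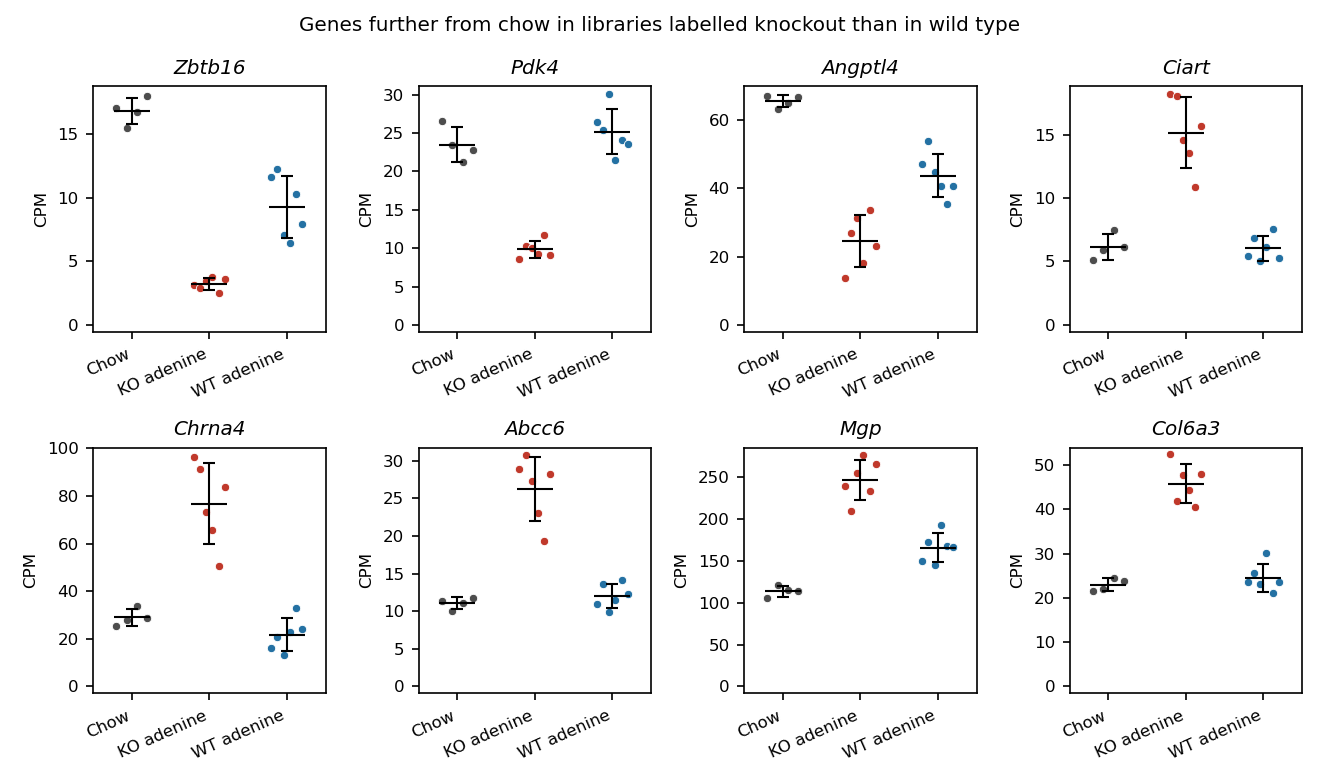
CPM per library (linear axes) of 8 genes in chow (n = 4), labelled knockout (KO) adenine (n = 6) and wild-type (WT) adenine (n = 6); points are libraries, black bars the mean and SD. In each panel the labelled knockouts lie farther from chow than wild type does, below chow for Zbtb16, Pdk4 and Angptl4 and above it for the other 5.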

How the data were processed

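Bulk mouse kidney RNA was sequenced in 16 libraries after stranded library preparation, and the submitters' processing notes name FastQC, Salmon, DESeq2, DESeq and GRCm39, with no versions. The deposited tables, per the file headers, hold for each transcript an estimated count, the TPM and an effective length. Estimated counts were summed per gene (35460 genes) through GENCODE identifiers and rounded. TPM was not used further, and effective lengths served an alternative. In R 4.3.3, edgeR 4.0.16 fitted the 3 groups together after TMM scaling and filterByExpr, leaving 16965 genes. A gene absent or nearly so in chow passed that filter through the adenine libraries, so it could rise or not pass but hardly fall. DESeq2 1.42.0 and limma 3.58.1 were alternatives. The code was tested on simulated data. No build-matched annotation was used, so gene positions are not given; promoter sequences come from RefSeq on GRCm38.p6. Named genes are the 10 largest rises and falls of protein-coding genes of at least 5 CPM that were called and without overlap, the largest, opposite and uncalled members of each list and fixed anchors. Members and lists were chosen with earlier results of these data known. A 95% counting interval covers counting error only. The 8 libraries of an antibody experiment were not analysed here. Results on some anchor and list genes are not reported here.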

Additional observations from a re-analysis of the deposited data

Results flagged for a closer look

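In 20 of 360 checks on a gene's or list's values within a group, 1 library stood apart from the others by Dixon's 95% limit, which chance alone passes in about 1 of 20 groups. In the labelled knockouts, replicate 5 stood apart for Il1rn (22.67 CPM), Hk2 (19.59 CPM), Slc7a11 (10.95 CPM) and Adipoq (0.366 CPM), in each case as the highest library. The other labelled knockout values that stood apart were Gtse1 in replicate 2 (3.28 CPM), Isg15 in replicate 4 (16.17 CPM), Xdh in replicate 1 (81.94 CPM), Aqp2 in replicate 3 (312.9 CPM), Cyp11a1 in replicate 6 (1.931 CPM) and the adrenal list level in replicate 6 (1.855). Among chow libraries, Enpp1 was low in replicate 4 (49.88 CPM), Sox9 low in replicate 2 (0.681 CPM) and Mmp7 at 0 CPM in replicate 4. Chow replicate 2 had the single Sprr2f read of its group (0.0524 CPM) and 0 CPM of Cxcl5. Chow replicate 1 stood apart for Mep1b (182.1 CPM) and Tnfaip8 (303.5 CPM) and chow replicate 3 for Oas2 (6.578 CPM), Ccl2 (1.236 CPM) and the neutrophil list level (1.096).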

How the results depend on the processing

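The count of genes changed between the labelled knockouts and chow was 13585, and it ranged from 13068 (transcript-length offset) to 14029 (no filter on low counts) over the alternatives, with 13498 by DESeq2. Leaving out single libraries gave 13200 to 13634 for this comparison, 7185 to 8102 (7873 with all) between the adenine groups and 14123 to 14408 (14406 with all) for wild type against chow. Genes changed at least 2-fold numbered 5084, and 4918 to 5458 without single libraries. Upper-quartile scaling moved the higher share of changed genes from 50.2% to 58.4% against chow and from 54.1% to 40.8% between the adenine groups, and with it Nfkbia (0.17), Csf1r (0.27), Nphs1 (0.33), Scnn1b (0.25) and Trpm6 (0.29) passed against chow. A cause was not tested. The replicate numbers did not pair the samples, since same-numbered libraries correlated at -0.144 to 0.069 in their deviations from the group means. With the number as a replicate block 13251 genes changed against chow and 7523 between the adenine groups. No called value of a gene named here changed direction under any alternative run. Phospho1 lost its call under limma voom (0.61, adjusted p = 0.064) and the block (0.57, adjusted p = 0.095). With the transcript-length offset Slc9a3 (-0.29) and Bub1 (2.51) passed, and Cyp11a1 (0.66) did not. Genes with few chow reads are limited by depth.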

Other observations

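Some genes were nearer to the chow level in the labelled knockouts than in wild type. They were chosen after their values were seen, by a change from chow of at least 2-fold in wild type (edgeR adjusted p under 0.05). The 95% interval of the change in the labelled knockouts also had to lie within 0.5 of 0 on the log2 scale. Their differences from wild type largely follow from this rule and are a description. Tnfaip8, a regulator of cell death, had 197 (lowest), 296 (median) and 378 (highest) CPM against 304, 328, 330.3 and 332 CPM, while wild type stood at 93.9 ± 21.2 CPM (mean ± SD, n = 6). Errfi1, a feedback inhibitor of the EGF receptor, had 231 (lowest), 371 (median) and 494 (highest) CPM against 366, 397, 382 and 389.5 CPM, with wild type at 122 ± 8.01 CPM (mean ± SD, n = 6). Alas1, the first enzyme of haem synthesis, had 104 (lowest), 135 (median) and 162 (highest) CPM against 147, 141, 153 and 146 CPM, with wild type at 68.7 ± 5.49 CPM (mean ± SD, n = 6). Notum, an enzyme that inactivates Wnt proteins, had 10.5 (lowest), 14.5 (median) and 16.3 (highest) CPM against 14.2, 14.6, 18.5 and 17.7 CPM, with wild type at 6.51 ± 0.922 CPM (mean ± SD, n = 6). The epithelial chemokine Ccl28 showed the opposite order, with 9.85 (lowest), 11.7 (median) and 13.8 (highest) CPM against 10.8, 9.33, 9.40 and 8.82 CPM and wild type at 21.2 ± 1.56 CPM (mean ± SD, n = 6). Of these genes Ccl28 passed against chow (log2 change 0.29, edgeR adjusted p = 0.0112), Notum did with a correction for transcript length (-0.39, edgeR adjusted p = 0.00291) and Alas1 did without labelled knockout replicate 2 (-0.22, edgeR adjusted p = 0.0169). In each of these genes every labelled knockout library lay on the chow side of every wild-type library.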
